A study of Mus musculus with 13 samples.

Results

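Chemosensory receptor genes were examined in mouse oocytes that lacked, or had, the RNA helicase MTR4, with nuclei and cytoplasms measured apart. The genes were the olfactory receptor (Olfr), vomeronasal receptor (Vmn1r and Vmn2r) and trace amine-associated receptor (Taar) genes, pseudogenes left out, that reached a value of 1 in any of the 4 columns of the deposited expression table. The rule found 151 of the 1427 receptor genes of these families, out of 23235 entries in the table, of which 16153 passed the same threshold. The members were thus selected on their values in these 4 columns, so everything said of their levels is a description, with no test.

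Olfactory receptors are G protein-coupled receptors of the nasal epithelium, where each sensory neuron transcribes a single allele of a single Olfr gene while the other copies stay packed in heterochromatin. Their class I genes lie together in a single cluster, and the class II genes lie in many. Vmn1r and Vmn2r genes encode pheromone receptors of the vomeronasal organ, and most Taar genes encode receptors for volatile amines in a small set of olfactory neurons. They are not counted among the genes that growing oocytes use. MTR4 unwinds RNA and delivers it to the nuclear exosome, a 3' to 5' RNA-degrading complex that removes, among other RNAs, transcripts from unintended start sites.

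The table held 1 column each for MTR4-null nuclei, WT nuclei, MTR4-null cytoplasms and WT cytoplasms. Libraries were made by Smart-seq2, a low-input method primed on poly(A) tails, and each came from 10 nuclei or 10 cytoplasms parted by micromanipulation. The labels list 13 libraries. MTR4-null nuclei and MTR4-null cytoplasms, both of day 21, have 2 libraries each. WT nuclei have 2 libraries of day 14 and 3 of day 21, and WT cytoplasms have 2 of day 14 and 2 of day 21. The WT columns name no day, so genotype and age cannot be told apart. The driver that removed Mtr4 and the number of mice are not given in the sources used here. Without a replicate for any column, the spread between libraries is unknown for every difference given here. A lower level in all 10 oocytes of a library and a loss from some of them cannot be told apart either.

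Skiv2l2, the gene of MTR4, stood at 3.54 in MTR4-null nuclei against 13.3 in WT nuclei, and at 4.36 in MTR4-null cytoplasms against 187 in WT cytoplasms. All 12 oocyte markers listed had signal, among them Gdf9, an oocyte growth factor, at 4577 in MTR4-null nuclei and 2494 in WT nuclei. The deposited values were not on a common scale: the columns summed to 1396110 in MTR4-null nuclei, 594034 in WT nuclei, 3007240 in MTR4-null cytoplasms and 6637350 in WT cytoplasms. Levels below are the deposited values, which are FPKM by name and so are taken per length of transcript. Differences were taken on log2(relative value + 1), where a relative value is the deposited value divided by its column's median ratio to the geometric mean column. They place a gene against the median gene, and the added 1 shrinks the differences of genes with small values. Calls of higher and lower mean a difference of 2-fold or more on this scale. The values as deposited served as another scale. A further one divided each column by the factor that its printed digits point to, here called the digit factor, which was 0.5 for MTR4-null nuclei, 0.125 for WT nuclei, 0.5 for MTR4-null cytoplasms and 1 for WT cytoplasms.

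Few receptor genes had signal, and most of those that did were low. The share with signal was 10.58% of all receptor genes, 9.49% of Olfr genes (104 of 1096), 11.6% of Vmn1r genes (23 of 198), 15.3% of Vmn2r genes (18 of 118) and 40% of Taar genes (6 of 15). It was 69.5% over all entries of the table. Other tissue-restricted families gave shares from below to above that of the receptor genes: 5.71% of the 35 bitter taste receptor genes (Tas2r), 11.5% of the 52 hair keratin-associated protein genes (Krtap) and 29.5% of the 44 beta-defensin genes (Defb). Of the 32 receptor pseudogenes, which the rule leaves out, 18.8% passed. Within Olfr, 16 of 124 class I genes (12.9%) and 84 of 944 class II genes (8.90%) had signal, and 28 further genes had no class in their names, of which 4 had signal.

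**Figure D1:**
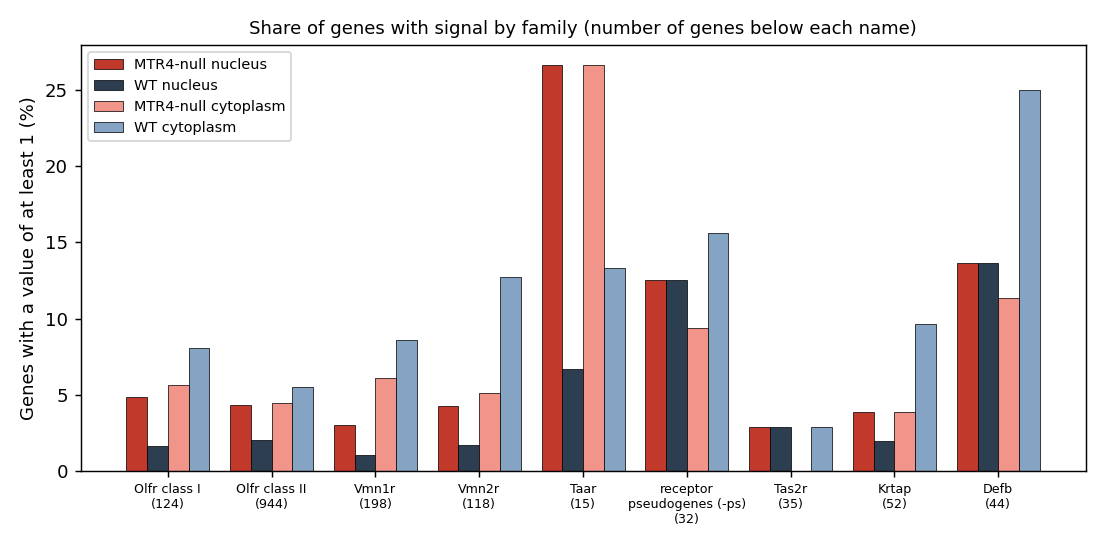
Share of the genes of each family with a deposited value of at least 1, in percent, by column of the table, with the number of genes of the family in brackets. Taar had the highest share, 26.7% in both MTR4-null columns, from 4 of 15 genes in each.

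The highest value was at least 100 in 5 genes, at least 10 in 25, at least 5 in 45 and under 5 in 106. The threshold fell within a dense range of low values. The members just inside it were Vmn2r84 with 1.07, Vmn2r69 with 1.08 and Vmn2r5 with 1.10, all in the WT cytoplasm. Just outside it were Vmn2r81 with 0.977 in MTR4-null nuclei, and Olfr1163 with 0.966 and Olfr750 with 0.934 in WT cytoplasms.

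A value of at least 1 was reached by 66 genes in MTR4-null nuclei, 26 in WT nuclei, 73 in MTR4-null cytoplasms and 97 in WT cytoplasms. This order rested on the scale of the columns: with the same threshold on relative values the counts were 85, 76, 47 and 46, in the same order of columns. The members together made up 0.0346% of the column total in MTR4-null nuclei, 0.0287% in WT nuclei, 0.0202% in MTR4-null cytoplasms and 0.0250% in WT cytoplasms. In each column the 5 highest members held between 56.2% and 61.4% of the members' sum. Only 12 members reached 1 in all 4 columns, 82 did so in a single column, and 49 of these 82 did so in WT cytoplasms.

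Most members reached 1 in a single genotype. Of the 151, 49 (32.5%) did so in an MTR4-null column and no WT column, 55 (36.4%) in a WT column and no MTR4-null column, and 47 (31.1%) in both genotypes. Over all entries with signal the shares were 8.22%, 7.40% and 84.4%. The members are low, and no entries of matched level were drawn for comparison. With the threshold on relative values the members' counts were 43, 32 and 39, and 37 passed in neither genotype. Across the 151 members, Spearman's rho was 0.17 between the 2 nuclei columns and 0.11 between the 2 cytoplasm columns, against 0.84 for both pairs over all 16153 entries with signal. Between the compartments of a genotype it was 0.43 in MTR4-null and 0.58 in WT oocytes, against 0.91 and 0.90. These coefficients run across genes, which are not independent replicates, and between 37 members (WT cytoplasms) and 62 (MTR4-null nuclei) were listed at 0 in a column. The members were also picked on these same columns and span a narrow, low range. Both can lower such coefficients, so nothing is read from the contrast with all entries.

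**Figure D2:**
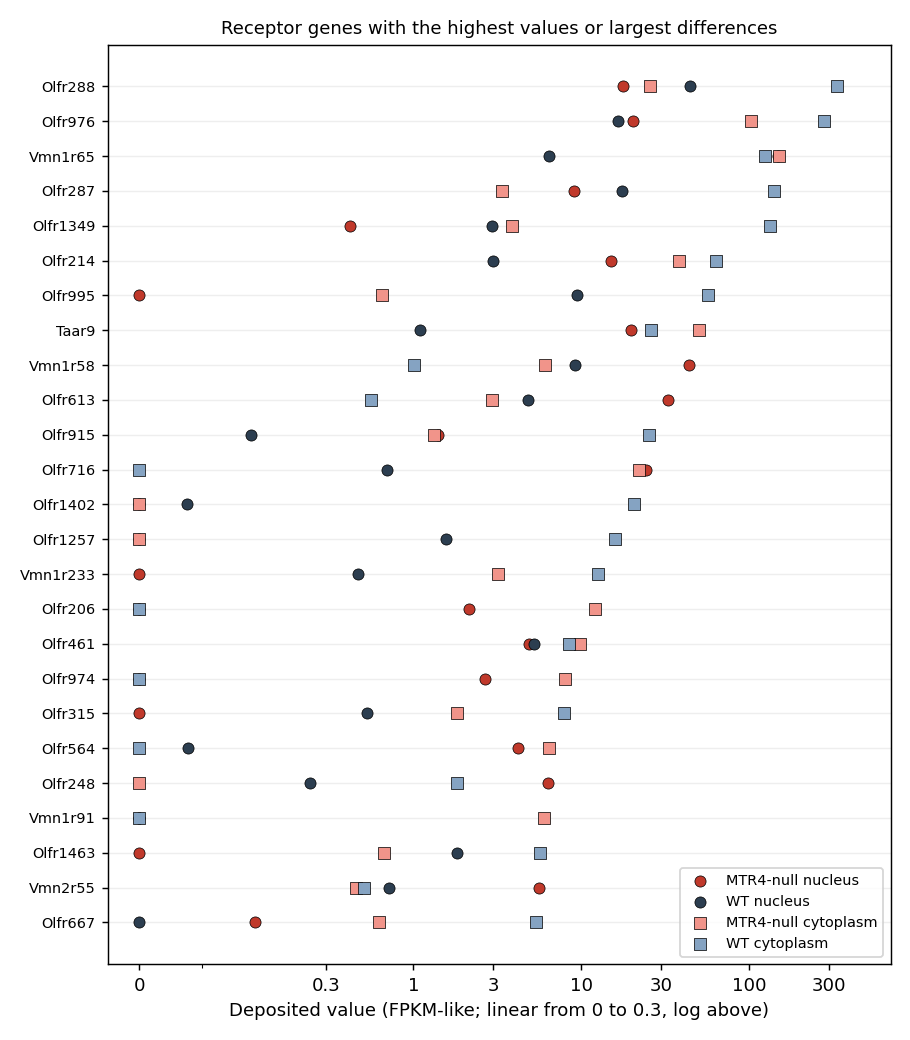
Deposited values of the 25 receptor genes that led a column or a comparison, 1 row a gene, on an axis that is linear from 0 to 0.3 and logarithmic above. Circles are nuclei and squares are cytoplasms, with MTR4-null in reds and WT in blues. Vmn1r65 and Vmn1r58 have their MTR4-null nucleus value far to the right of their WT nucleus value, and Olfr288 and Olfr1349 have WT cytoplasm values far to the right of the other 3. The columns shown are not on a common scale. The log2 difference of Vmn1r58 between nuclei was 1.12 on the relative scale and 0.24 with the digit factors.

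The highest members had different profiles. Vmn1r65, a V1R pheromone receptor gene, stood at 150.3 in MTR4-null nuclei against 6.45 in WT nuclei, and at 152 in MTR4-null cytoplasms against 126 in WT cytoplasms. It was the highest receptor gene in both MTR4-null columns. The log2 difference was 3.38 between nuclei, and at least 2-fold on all 3 scales. Between cytoplasms it was 1.15, and 0.28 on the values as deposited. Olfr976, a class II gene, was high everywhere, with 20.4 in MTR4-null nuclei, 16.6 in WT nuclei, 104 in MTR4-null cytoplasms and 282 in WT cytoplasms. Neither of its log2 differences reached 2-fold, at -0.78 between nuclei and -0.55 between cytoplasms, but the first was -1.67 with the digit factors and 0.29 on the values as deposited, and the second was -1.44 as deposited.

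Olfr288 and Olfr287, class II neighbours whose coding sequences are 97.1% identical, were lower in MTR4-null oocytes. Olfr288 stood at 17.9 in MTR4-null nuclei against 44.7 in WT nuclei, and at 25.7 in MTR4-null cytoplasms against 335 in WT cytoplasms, the highest value of any receptor gene. Olfr287 stood at 9.02 in MTR4-null nuclei against 17.5 in WT nuclei, and at 3.38 in MTR4-null cytoplasms against 140.4 in WT cytoplasms. The log2 differences were -2.39 between nuclei and -2.73 between cytoplasms for Olfr288, and -1.99 and -3.89 for Olfr287. How the authors' counting divides reads between such near-identical copies is uncertain, so the pair may stand for 1 signal. On the values as deposited the nuclear difference of Olfr287 was -0.88. The 2 genes lie on the same strand of chromosome 15. Their promoter windows, from RefSeq on GRCm38.p6 and running from 250 bases before to 50 bases after the annotated start, are shown because the pair shares its profile: over 236 aligned columns they were 94.5% identical. Capitals mark the longest run they share, of 67 bases. Olfr288 is at chr15:98195493-98195792 and Olfr287 at chr15:98221007-98221306, both on the minus strand.
Olfr288: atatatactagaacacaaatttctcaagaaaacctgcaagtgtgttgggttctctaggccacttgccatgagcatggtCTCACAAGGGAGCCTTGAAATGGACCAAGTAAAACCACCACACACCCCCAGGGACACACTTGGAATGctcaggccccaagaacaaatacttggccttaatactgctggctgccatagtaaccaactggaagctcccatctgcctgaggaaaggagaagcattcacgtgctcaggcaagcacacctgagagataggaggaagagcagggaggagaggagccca
Olfr287: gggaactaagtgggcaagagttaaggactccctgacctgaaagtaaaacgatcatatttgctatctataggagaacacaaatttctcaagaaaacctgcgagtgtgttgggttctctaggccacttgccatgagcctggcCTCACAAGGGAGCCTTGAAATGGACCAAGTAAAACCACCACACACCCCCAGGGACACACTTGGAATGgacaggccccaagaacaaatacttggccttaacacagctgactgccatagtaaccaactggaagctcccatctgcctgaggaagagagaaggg

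Between nuclei, 49 members were at least 2-fold higher in MTR4-null oocytes and 33 at least 2-fold lower, where 24.3% and 16.3% of all entries with signal were. The rule used these columns, so nothing is read from these shares. As deposited the counts were 49 higher and 8 lower, against 42% and 3.59% of all entries, so the split between directions depends on the scale. On all 3 scales 40 members were higher, against 14.3% of all entries, and 8 were lower, against 3.59%.

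The highest of the 45 members with a value of at least 5 were Olfr716, Vmn1r65, Taar9 and Olfr564. Olfr716, a class II gene, stood at 24.4 in MTR4-null nuclei against 0.695 in WT nuclei, a log2 difference of 3.58. In cytoplasms it stood at 22.2 in MTR4-null oocytes and was listed at 0 in WT, a log2 difference of 3.71, the highest in that comparison too. No fold is given against a listed 0. Taar9, a trace amine-associated receptor gene, stood at 19.8 in MTR4-null nuclei against 1.10 in WT nuclei, and at 50.5 in MTR4-null cytoplasms against 26.1 in WT cytoplasms. Its log2 difference was 2.79 between nuclei and 1.72 between cytoplasms, and the second was 0.93 on the values as deposited. Olfr564, a class I gene, stood at 4.21 in MTR4-null nuclei against 0.0775 in WT nuclei, and at 6.48 in MTR4-null cytoplasms, with 0 listed in WT cytoplasms.

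The lowest of these 45 members were Olfr995, Olfr1463, Olfr1349 and Olfr1257, all class II genes. Olfr995 was listed at 0 in MTR4-null nuclei against 9.43 in WT nuclei, and stood at 0.650 in MTR4-null cytoplasms against 57.3 in WT cytoplasms. Its log2 difference was -5.11 between nuclei and -3.72 between cytoplasms. Olfr1349 stood at 0.420 in MTR4-null nuclei against 2.96 in WT nuclei, and at 3.87 in MTR4-null cytoplasms against 134 in WT cytoplasms. Its differences were -2.77 and -3.70. Olfr1463 was listed at 0 in MTR4-null nuclei against 1.83 in WT nuclei, and stood at 0.664 in MTR4-null cytoplasms against 5.65 in WT cytoplasms. These genes were lower in MTR4-null nuclei by at least 2-fold on all 3 scales, Olfr1257 included, which was listed at 0 there against 1.57 in WT nuclei.

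**Figure D3:**
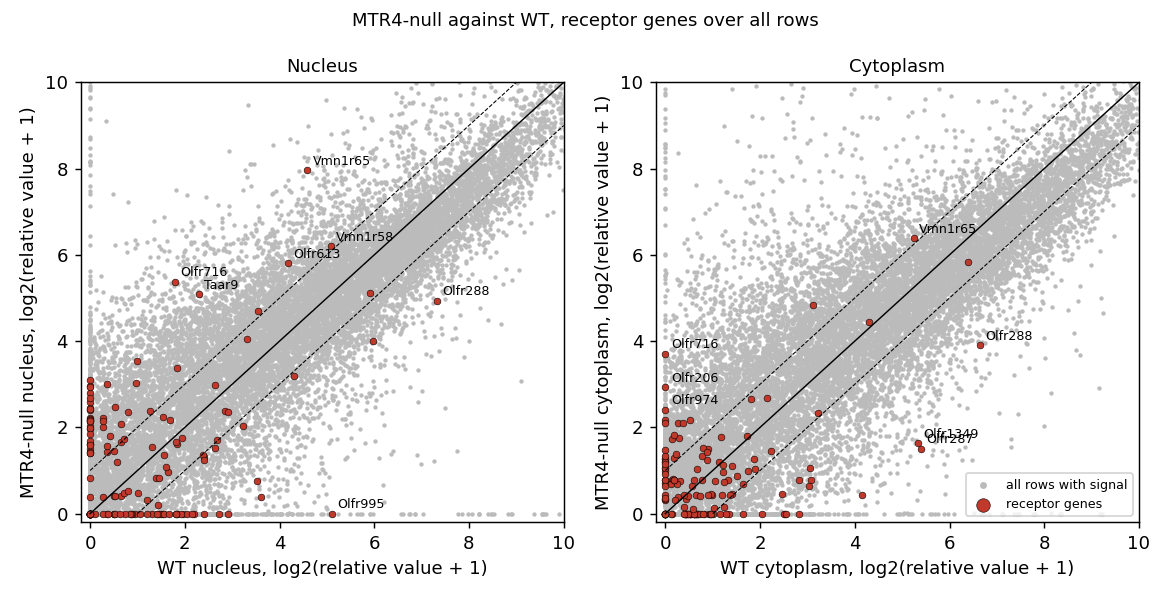
MTR4-null against WT on the log2(relative value + 1) scale, nuclei on the left and cytoplasms on the right, with receptor genes in red over all entries with signal in grey. The solid line is equality and the dashed lines 2-fold, and 469 entries (nuclei) and 441 (cytoplasms) above 10 are not drawn. Many red points lie on an axis, at 0 in 1 genotype, and Olfr995 lies furthest right of the red points on the lower axis of the nuclear panel.

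Between cytoplasms, 24 members were at least 2-fold higher in MTR4-null oocytes and 20 lower, where 22.7% and 18.5% of all entries were. As deposited it was 28 higher and 71 lower, against 15.9% and 43.4%, and on all 3 scales 22 higher and 20 lower, against 14.4% and 17.1%. Nothing is read from these shares either. After Olfr716, the highest were Olfr206 and Olfr974, both class II. Olfr206 stood at 2.16 in MTR4-null nuclei and 12.1 in MTR4-null cytoplasms, and was listed at 0 in both WT columns. Olfr974 stood at 2.68 in MTR4-null nuclei and 7.96 in MTR4-null cytoplasms, and was also listed at 0 in both WT columns. The lowest were Olfr287, Olfr995, Olfr1349 and Olfr1402. Olfr1402 was listed at 0 in both MTR4-null columns, against 0.0763 in WT nuclei and 20.6 in WT cytoplasms.

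Across both compartments, 18 members were higher in MTR4-null oocytes in each, 13 were lower in each and 57 were past 2-fold in neither. These counts are on the relative scale only. They were not taken over all entries, so nothing is read from them. Olfr915, a class II gene, was the only member with opposite calls on that scale. It stood at 1.41 in MTR4-null nuclei against 0.180 in WT nuclei, and at 1.33 in MTR4-null cytoplasms against 25.4 in WT cytoplasms, with log2 differences of 1.02 and -2.30. The nuclear difference was 0.65 with the digit factors, under 2-fold.

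The Taar genes had the highest share with signal. Of the 6 with signal, 5 were at least 2-fold higher in MTR4-null nuclei and 1, Taar1, was lower, with 0 listed in MTR4-null nuclei and 0.364 in WT nuclei. As deposited, the log2 difference of Taar7a was 0.99 and that of Taar1 -0.45, both under 2-fold. In cytoplasms 3 were higher and 0 were lower. Over all entries 24.3% were higher and 16.3% lower between nuclei, and 22.7% and 18.5% between cytoplasms. Between nuclei 5 Vmn1r members of 23 were higher and 3 lower, as were 4 and 3 of 18 Vmn2r members and 35 and 26 of 104 Olfr members. With 6 genes, 4 of them near-identical copies, nothing is read from the Taar counts. Taar7a, Taar7d, Taar7e and Taar7f, near-identical copies with 95.3% to 95.5% identity to their closest relatives, stood at 0.990, 1.25, 2.62 and 2.06 in MTR4-null nuclei, and all were listed at 0 in WT nuclei. In MTR4-null cytoplasms they stood at 2.22, 1.11, 0.554 and 6.10. WT cytoplasms had 0.619 for Taar7d and 0.684 for each of Taar7e and Taar7f, and 0 was listed for Taar7a. The equal values of the last pair are those of the same number of reads over equal lengths or of reads divided between copies, which cannot be told apart here. These 4 genes are therefore uncertain one by one.

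In MTR4-null oocytes 40 members were at least 2-fold higher in nuclei than in cytoplasms and 7 lower, where 12.3% and 9.29% of all entries were. In WT oocytes it was 19 higher and 6 lower, where 9.45% and 7.75% were. As deposited, 25 were higher and 32 lower in MTR4-null oocytes, against 3.62% and 66.1% of all entries, and 6 higher and 87 lower in WT oocytes, against 1.86% and 85.7%. The 25 and the 6 were higher in nuclei on all 3 scales. With 1 pair of columns a genotype, no test of a difference between genotypes in this was possible.

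Vmn1r58, a V1R gene, and Olfr613, a class I gene, were the most nuclear members in both genotypes. Vmn1r58 stood at 43.8 in nuclei against 6.06 in cytoplasms of MTR4-null oocytes, and at 9.25 in nuclei against 1.005 in cytoplasms of WT oocytes. Its log2 differences, nucleus over cytoplasm, were 4.10 in MTR4-null and 4.71 in WT oocytes. Olfr613 stood at 33.1 in nuclei against 2.94 in cytoplasms of MTR4-null oocytes, and at 4.81 in nuclei against 0.559 in cytoplasms of WT oocytes. Its differences were 4.42 and 3.96. Both genes were higher in nuclei by at least 2-fold on all 3 scales, in both genotypes. Their log2 differences between MTR4-null and WT nuclei were 1.12 for Vmn1r58 and 1.62 for Olfr613. With the digit factors these were 0.24 and 0.77, under 2-fold.

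Among the members with a value of at least 5, the next in MTR4-null oocytes were Olfr248 and Vmn2r55. Olfr248, a class II gene, stood at 6.37 in nuclei and was listed at 0 in cytoplasms of MTR4-null oocytes, and stood at 0.274 in nuclei against 1.82 in cytoplasms of WT oocytes. Vmn2r55, a V2R gene, stood at 5.63 in nuclei against 0.452 in cytoplasms of MTR4-null oocytes, a log2 difference of 3.05, and at 0.715 in nuclei against 0.504 in cytoplasms of WT oocytes. At the cytoplasmic end of the same 45 members in MTR4-null oocytes were Vmn1r91 and Vmn1r233, both V1R genes, then Olfr315 and Olfr1349. Vmn1r91 was listed at 0 in nuclei against 6.05 in cytoplasms, and Vmn1r233 at 0 in nuclei against 3.20 in cytoplasms. In WT oocytes Olfr1402 and Olfr915 were lowest, with log2 differences of -2.47 and -2.37.

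The longest coding transcript models of the leading genes differed in how much sequence they share with other genes. That of Vmn1r58 spans 10140 bases, of which 7.04% lie in stretches of 25 bases found in at least 20 other genes, and that of Olfr613 spans 5139 bases with 6.52%. The share was 23.4% for Vmn1r91 and 5.12% for Vmn1r233, and 2.82% for Olfr461, 2.23% for Olfr1349 and 1.46% for Olfr287. It was 0 for Vmn1r65, Olfr976, Olfr288 and Olfr716. Such stretches can draw reads from elsewhere in the genome, and their part in the values was not tested. Over all members 51.7% had such a stretch, against 53.5% of receptor genes without signal. The promoter windows of Vmn1r65, Vmn1r58, Olfr716 and Olfr613 are shown because these genes led the MTR4-null nuclei. Capitals mark the first motif match in each, on either strand: TATAAA, read here on the other strand as TTTATA, in Vmn1r65; the homeodomain core TAATTA in Vmn1r58; the NOBOX core TAATTG, read on the other strand as CAATTA, in Olfr716; and TATAAA in Olfr613. The windows lie at chr7:6010961-6011260 on the minus strand, chr7:5413096-5413395 on the minus strand, chr7:107147048-107147347 on the plus strand and chr7:103550118-103550417 on the plus strand, in that order.
Vmn1r65: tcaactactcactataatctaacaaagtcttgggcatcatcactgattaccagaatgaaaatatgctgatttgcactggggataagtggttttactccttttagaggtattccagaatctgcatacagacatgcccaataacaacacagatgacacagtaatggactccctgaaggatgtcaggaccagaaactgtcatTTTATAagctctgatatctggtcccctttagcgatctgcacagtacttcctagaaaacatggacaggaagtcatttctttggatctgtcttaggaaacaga
Vmn1r58: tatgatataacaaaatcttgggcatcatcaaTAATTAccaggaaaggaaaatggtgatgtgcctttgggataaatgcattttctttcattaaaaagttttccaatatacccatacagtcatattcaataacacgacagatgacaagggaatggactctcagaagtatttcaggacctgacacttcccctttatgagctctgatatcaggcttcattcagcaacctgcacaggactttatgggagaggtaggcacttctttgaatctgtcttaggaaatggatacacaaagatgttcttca
Olfr716: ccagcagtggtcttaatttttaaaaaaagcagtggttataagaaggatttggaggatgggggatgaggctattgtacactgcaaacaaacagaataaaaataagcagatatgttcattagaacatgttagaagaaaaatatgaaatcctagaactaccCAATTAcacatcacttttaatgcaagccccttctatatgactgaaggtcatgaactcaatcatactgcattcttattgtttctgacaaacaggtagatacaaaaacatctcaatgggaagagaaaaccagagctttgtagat
Olfr613: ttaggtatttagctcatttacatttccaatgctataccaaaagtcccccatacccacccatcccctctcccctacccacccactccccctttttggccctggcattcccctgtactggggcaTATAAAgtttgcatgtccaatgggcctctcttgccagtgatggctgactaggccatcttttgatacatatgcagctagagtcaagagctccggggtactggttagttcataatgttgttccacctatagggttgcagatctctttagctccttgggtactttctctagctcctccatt

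The Vmn1r65 and Vmn1r58 windows were 74.1% identical over 286 aligned columns. The Olfr613 window shared at least 25 bases with 52 other promoter windows, while Vmn1r65 and Olfr716 shared them with 0 and Vmn1r58 with 1. Motifs were counted on both strands in the windows of 129 members. TATAAA, the TATA box core, was in 40.3% of these, in 39.9% of the windows of receptor genes without signal and in 14.2% of all 27025 windows. TAATTG, the core bound by the oocyte factor NOBOX, was in 22.5%, 21.01% and 8.15%. TAATTA, the homeodomain core bound by factors such as LHX2, was in 17.8%, 17.1% and 5.31%; it shares the letters TAATT with the NOBOX core. The palindromic Olf1/EBF motif of olfactory neurons was in 0.775%, 0.369% and 0.914%, which for the members is 1 window. The shares of members and of receptor genes without signal thus lay close together, and a match is not a bound site.

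Some members lay side by side in the genome. In the gene order of GENCODE M21, on GRCm38, 150 members could be placed. Of these, 48 (32%) were next to another member, and 194 of 1262 receptor genes without signal (15.4%) were next to one. This difference was not tested, and near-identical copies often sit side by side. Of 1241 pairs of adjacent receptor genes 28 (2.26%) were both members, and 22 of these pairs lay on a single strand. Chromosome 7 held 50 of the placed members, from 377 receptor genes, and chromosome 15 held 4 from only 9.

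In a minority of these pairs both genes were past 2-fold. In nuclei both genes were at least 2-fold higher in MTR4-null oocytes in 4 pairs, both lower in 3, and 1 pair was opposite. In cytoplasms the counts were 1, 3 and 1. These counts are on the relative scale and were not taken for adjacent genes over all entries, so nothing is read from them. The 3 pairs that were lower in both compartments were Olfr288 with Olfr287, Olfr994 with Olfr995, and Olfr48 with Olfr1257. Olfr994, at 88.5% identity to Olfr995, was listed at 0 in both MTR4-null columns, against 0.709 in WT nuclei and 16.6 in WT cytoplasms, and its nuclear log2 difference was -0.77 as deposited. Olfr48 was listed at 0 in MTR4-null nuclei against 1.0004 in WT nuclei, and stood at 0.689 in MTR4-null cytoplasms against 15.5 in WT cytoplasms. Olfr1257, on the other strand beside it, was listed at 0 in MTR4-null cytoplasms against 16.01 in WT cytoplasms.

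Olfr974, Olfr975 and Olfr976 form a run of neighbouring class II genes. Olfr975 stood at 4.06 in MTR4-null nuclei with 0 listed in WT nuclei, and at 4.64 in MTR4-null cytoplasms against 0.448 in WT cytoplasms. Like Olfr974, it was at least 2-fold higher in MTR4-null oocytes in both compartments on all 3 scales, while Olfr976 beside it was past 2-fold in neither on the relative scale. The coding sequences of Olfr975 and Olfr976 are 76.3% identical.

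**Figure D4:**
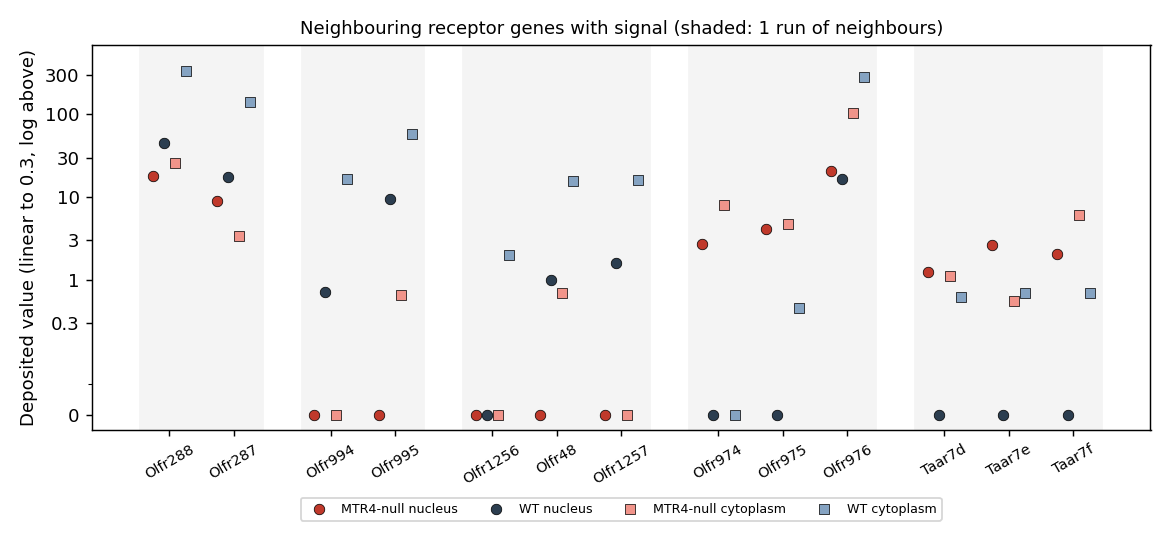
Deposited values of 5 runs of neighbouring receptor genes, each run shaded, on an axis that is linear to 0.3 and logarithmic above. Circles are nuclei, squares cytoplasms, reds MTR4-null and blues WT. In the first 3 runs the WT cytoplasm squares lie highest, and for Olfr974, Olfr975 and Taar7f the MTR4-null cytoplasm squares do.

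Several leading members sit beside a gene of another kind that oocytes transcribe. A non-receptor neighbour of any level was present for 29 members (19.3%), against 18.1% of receptor genes without signal. For 24 members such a neighbour reached 1 in any column, and this was not counted for receptor genes without signal. The examples that follow were picked after their values were seen. Olfr716 lies beside Nlrp14, a maternal-effect gene on the same strand, which stood at 1630.4 in MTR4-null nuclei against 654 in WT nuclei, and at 8599 in MTR4-null cytoplasms against 15949.6 in WT cytoplasms. Olfr288 lies beside Asb8, on the same strand, at 107 in MTR4-null nuclei against 73.8 in WT nuclei and at 340.5 in MTR4-null cytoplasms against 1298 in WT cytoplasms. Vmn1r65 lies beside Nlrp4c, on the other strand, which had lower values than Vmn1r65 in 4 of 4 columns, 17.9 in MTR4-null nuclei and 4.53 in WT nuclei among them. Vmn1r91 follows Nlrp9b, an oocyte gene on its strand, at 211 in MTR4-null nuclei against 115 in WT nuclei. These are deposited values. On the relative scale the log2 differences between nuclei were 0.21 for Nlrp14, -0.56 for Asb8, 0.84 for Nlrp4c and -0.24 for Nlrp9b. Between cytoplasms they were -0.003, -1.04, 0.43 and -0.90, in the same order. Whether reads of these neighbours reach the receptor genes was not tested.

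Genes with the most similar profiles to the 3 highest members were sought among all members by distance over the 4 columns of centred log2 values. Nearest to Vmn1r65 was Olfr975 at a distance of 0.465, then Vmn2r80 at 0.484 and Olfr878 at 0.864. Nearest to Olfr976 was Vmn1r148 at 0.193, and nearest to Olfr288 was Olfr1257 at 0.804. With 4 columns, such nearness says little.

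The depth behind these values is unknown in reads, but low values stepped in units. If each gene's length is its coding length, 1 read for a gene of the median coding length of 945 bases was worth 0.649 in the MTR4-null cytoplasm column. The number of steps sought was set beforehand, at 1 in this column and 2 in each of the others, so nothing is read from it. In the others the steps were 0.193 and 0.230 in MTR4-null nuclei, 0.0594 and 0.0777 in WT nuclei, and 0.363 and 0.439 in WT cytoplasms. Between 58.1% and 70.8% of the low values were whole within a tolerance of 0.01 steps, so the reading holds for part of the genes. A value of 1 in the MTR4-null cytoplasm column thus stood for 1.54 reads. Of the 83 members above 0 there with a short coding model, 51 came out whole within 0.02, and 31 of these stood for 1 to 3 reads. Olfr974 came to 12 reads, with an exact Poisson 95% interval of 6.20 to 20.96 reads, Taar7f to 11 (5.49 to 19.7), Olfr564 to 10 (4.80 to 18.4) and Olfr1349 to 6 (2.202 to 13.1). Olfr915 came to 2 reads (0.242 to 7.22), and Olfr995, Olfr48 and Olfr1463 came to 1 read each (0.0253 to 5.57). The intervals cover counting error only, and reads copied by PCR are not independent molecules.

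**Figure D5:**
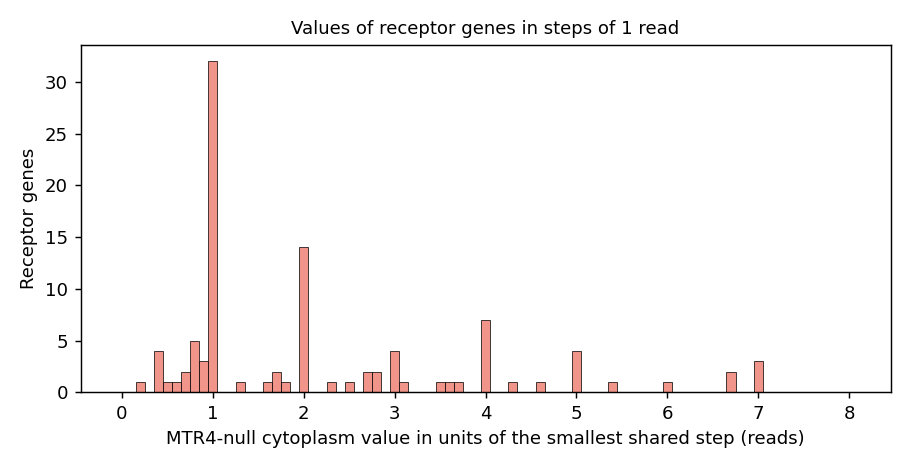
Histogram of the values of receptor genes above 0 in the MTR4-null cytoplasm column, each multiplied by its effective coding length and divided by the smallest shared step, so that 1 stands for 1 read. Of 117 genes, members or not, 32 lie in the bar at 1 and 15 lie beyond the plotted range.

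Genes that act with the receptors in the nose included some that were higher and some that were lower in MTR4-null oocytes. Of 19 olfactory transduction genes measured, 14 had signal; between nuclei 1 was at least 2-fold higher in MTR4-null oocytes and 5 lower, and between cytoplasms 2 were higher and 4 lower. Their median log2 difference was 0.05 between nuclei and 0.03 between cytoplasms. Over all entries with signal, 24.3% were higher and 16.3% lower between nuclei, and 22.7% and 18.5% between cytoplasms. The gene lists were counted on the relative scale only, and nothing is read from counts of so few genes. Rtp1 and Rtp2, which carry olfactory receptors to the cell surface, and Cngb1, a channel subunit, were listed at 0 in all 4 columns. Cnga4, another subunit of that channel, stood at 1.94 in MTR4-null nuclei against 2.40 in WT nuclei, and at 9.78 in MTR4-null cytoplasms against 64.5 in WT cytoplasms. Of 20 vomeronasal transduction genes 14 had signal, with 3 higher and 2 lower between nuclei and 1 higher and 3 lower between cytoplasms. Trpc2, the vomeronasal ion channel, stood at 7.68 in MTR4-null nuclei against 3.23 in WT nuclei, and at 4.41 in MTR4-null cytoplasms against 42.8 in WT cytoplasms.

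Of 22 factors of receptor choice and silencing, 21 had signal, with 2 higher and 3 lower between nuclei and 4 higher and 2 lower between cytoplasms. The shares over all entries were 24.3% and 16.3% between nuclei, and 22.7% and 18.5% between cytoplasms. Ehmt2, a histone H3 lysine 9 methyltransferase, was higher in MTR4-null nuclei, at 11.4 against 0.539 in WT nuclei, a log2 difference of 2.76. Suv39h1, an enzyme for the same residue, was lower in MTR4-null cytoplasms, at 72.9 against 608 in WT cytoplasms, a log2 difference of -2.14. Cbx3, an HP1 protein that binds this mark, was higher in MTR4-null cytoplasms, at 332 against 139 in WT cytoplasms, a log2 difference of 2.12. Lhx2, which drives receptor genes in olfactory neurons, stood at 3.28 in MTR4-null nuclei against 4.49 in WT nuclei, and at 9.76 in MTR4-null cytoplasms against 28.8 in WT cytoplasms. Its log2 differences were -1.40 between nuclei and -0.58 between cytoplasms. Suv39h2 and Emx2 were the others lower between nuclei, at -1.72 and -1.32, and Emx2 had 1.57 between cytoplasms. Ehmt2 had 0.81 between cytoplasms, and Suv39h1 and Cbx3 had -0.98 and 1.35 between nuclei.

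Markers of other cells were set beside these values. Of 11 olfactory neuron markers 3 had signal, Uchl1, Tubb3 and Calb2, and Uchl1 is abundant in oocytes too. Omp, the defining protein of mature olfactory neurons, was listed at 0 in MTR4-null nuclei and stood at 0.0469 in WT nuclei, 0.513 in MTR4-null cytoplasms and 0.430 in WT cytoplasms. Uchl1 stood at 5809 in MTR4-null nuclei, 2295 in WT nuclei, 14558 in MTR4-null cytoplasms and 36009.6 in WT cytoplasms. In the same order, Tubb3 stood at 224, 113, 809 and 2165, and Calb2 at 0.609, 0, 0.394 and 11.1. Gap43, S100a5 and Kcnk10 were listed at 0 in all 4 columns. Of 14 granulosa cell markers 13 had signal. Their summed level was 84.8 in MTR4-null nuclei, 43.0 in WT nuclei, 402 in MTR4-null cytoplasms and 871 in WT cytoplasms. Between cytoplasms 6 of these markers were at least 2-fold higher in MTR4-null oocytes and 2 lower, and between nuclei 1 was higher and 3 lower. The shares over all entries were 22.7% and 18.5% between cytoplasms, and 24.3% and 16.3% between nuclei. Inha, Foxl2 and Gja1 were listed at 0 in MTR4-null nuclei, and Amh and Runx1 in WT nuclei. Others had signal in nuclei, with Esr2 at 64.1 in MTR4-null and 25.9 in WT nuclei, and Nr5a2 at 13.4 and 5.71. The 6 higher between cytoplasms were Igfbp5, Wt1, Foxl2, Hsd3b1, Kitl and Amh, with Igfbp5 at 30.7 in MTR4-null against 1.04 in WT cytoplasms. The 2 lower were Esr2, at 96.5 against 417, and Cyp19a1, at 15.4 against 78.0. The part of granulosa cell RNA in the receptor values was not tested.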

How the data were processed

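Poly(A) RNA of oocyte nuclei and cytoplasms was sequenced, and the authors deposited a table of 23235 gene symbols with 4 columns, 1 for each genotype and compartment. Per the submitters' processing notes, TopHat2 2.1.1, Cufflinks 2.2.1 and the build mm9 were used. The sources used here do not say how libraries became columns. The deposited values are FPKM by name, but the columns are not on a common scale, so they were treated as a score. No column was left out.

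The 151 receptor genes and all gene lists were chosen with earlier results of these data known. Columns were divided by their median ratio to the geometric mean column over 14273 genes above 0 in all 4 columns (divisors 0.604 for MTR4-null nuclei, 0.281 for WT nuclei, 1.84 for MTR4-null cytoplasms and 3.41 for WT cytoplasms), 1 was added, and log2 differences of at least 2-fold were counted. The computation was tested on simulated data. The background for each count was the 16153 entries that reached 1 in any column. No test was run, as no column has a replicate. Depth in reads is unknown except as steps of low values show it.

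Named were the 5 highest members of each column, the 4 highest and 4 lowest of each comparison among members with a value of at least 5, all Taar members, the 3 highest of those at 1 in all columns, those nearest the threshold and those nearest in profile. Other genes were named as neighbours or pathway genes after their values were seen. Closest relatives came from BLAST 2.17.0 over GENCODE M21 coding sequences, over at least 80% of the length. Promoter windows are RefSeq's, on GRCm38.p6, and were matched by symbol. Python 3.11.15, numpy 2.4.6, pandas 2.3.3 and scipy 1.17.1 were used. Alternatives were the unscaled values, the digit factors, an added 0.1, a filter of 1 in 2 columns, no filter, and relative thresholds.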

Additional observations from a re-analysis of the deposited data

Results flagged for a closer look

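Olfr915 was set apart because its difference between MTR4-null and WT oocytes went opposite ways in the compartments. The log2 difference was 1.02 between nuclei and -2.30 between cytoplasms, which are 3.32 apart. The difference between compartments was not tested, since each rests on single columns, and the nuclear one was 0.65 with the digit factors. Its neighbour Olfr916 had -0.56 between nuclei and 0.54 between cytoplasms. By the steps of low values, Olfr915 came to 2 reads in MTR4-null cytoplasms, with an exact Poisson interval of 0.242 to 7.22 reads. In WT nuclei it stood at 0.180, where the steps were 0.0594 and 0.0777 for a gene of the median coding length. Low depth thus limits both of its differences.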

How the results depend on the processing

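Most counts of members moved with the scale, and their causes were not tested beyond what the scaling itself does. The counts they are set against are 49 higher and 33 lower in MTR4-null nuclei against WT, 24 and 20 in cytoplasms, and nucleus over cytoplasm 40 and 7 in MTR4-null and 19 and 6 in WT oocytes. On the values as deposited, where the median of all entries lay at 0.79 between nuclei and -0.76 between cytoplasms, the moved counts were 8 lower between nuclei, 71 lower between cytoplasms, 25 higher and 32 lower for nucleus over cytoplasm in MTR4-null oocytes, and 6 and 87 in WT oocytes. With the digit factors they were 50 lower between nuclei, 39 higher and 57 lower between cytoplasms, and 46 lower in MTR4-null and 44 lower in WT oocytes for nucleus over cytoplasm. Over all entries the shares at this setting were 41.4% lower between nuclei, 29.7% higher and 20.5% lower between cytoplasms, and 69.5% and 32.9% lower for nucleus over cytoplasm in MTR4-null and WT oocytes. With 0.1 added in place of 1 they were 50 lower between nuclei, 44 higher and 65 lower between cytoplasms, 32 lower in MTR4-null oocytes, and 32 higher and 41 lower in WT oocytes. Over all entries these shares were 20.4%, 29.0% and 23.6%, 14.7%, and 13.8% and 14.6%, in the same order. The 69 members at 1 in at least 2 columns gave 31 higher and 18 lower between nuclei, 11 lower between cytoplasms, 21 higher and 4 lower in MTR4-null oocytes, and 11 higher and 3 lower in WT oocytes, from fewer genes. With no filter 34 receptor genes were higher in WT nuclei than in WT cytoplasms. Without members at least 95% identical to another gene, an alternative chosen after seeing the data, 14 were higher between cytoplasms. Shares over all entries were not taken for the 2-column filter, for no filter or for the identity filter. Nothing is therefore read from their counts. With a threshold of 1 on relative values, 76 receptor genes passed in WT nuclei, 47 in MTR4-null cytoplasms and 46 in WT cytoplasms. An identity filter on proteins was not run. No paired analysis was possible because each genotype and compartment has a single column, which carries no replicate number, and no replicate could be left out. Low depth limits all values near 1.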

Other observations

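Taste receptor and epithelial gene families gave further values outside the comparisons. All 3 sweet and umami receptor genes (Tas1r) had signal, with a highest value of 15.3, while the highest of the 35 Tas2r genes was 2.62. Krtap genes reached 3.84 at most. Of the 6 receptor pseudogenes with signal, the highest value was 8545, above every member of the receptor families.

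Exon structure did not set the members apart from other receptor genes by much: 32 of 150 members (21.3%) had a coding model of a single exon, against 19.0% of receptor genes without signal. The share with a closest relative of at least 95% coding identity was 29.4% of 143 members and 30.3% of 1348 receptor genes of these families, members included.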
